A study of Mus musculus with 12 samples.

Results

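Expression of 10 genes of the prostaglandin and leukotriene pathways was measured in airway macrophages (AMs) of mice. The genes were Ptgs1, Ptgs2, Ptges, Ptgir, Ptger2, Ptger4, Alox5, Alox5ap, Lta4h and Ltc4s. The set was taken by name for the enzymes and receptors they encode, with earlier results of these data known. All 10 were among the 20551 genes counted and among the 13729 that passed a filter on low counts. The question put to them was how AMs change them when they meet a bacterial product, and whether AMs from mucus-obstructed lungs differ in this from normal AMs.

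The cells came from C57BL/6 mice of 6 weeks that were either wild type (WT) or carried the Scnn1b transgene (Scnn1b-Tg, shortened to Tg for libraries and pools). The transgene overexpresses a subunit of the epithelial sodium channel under a promoter of airway club cells, so it is aimed at the airway lining and not at macrophages, and the mice develop mucus obstruction. WT mice were littermates. Cells of every pool were kept for 12 h in medium alone or in medium with 100 ng/ml lipopolysaccharide (LPS) of Pseudomonas aeruginosa. That gave 4 groups of 3 libraries: WT medium, WT LPS, Tg medium and Tg LPS. Each of the 6 pools (WT 16, 17 and 18 and Tg 17, 18 and 19) combined 3 to 4 animals and supplied 1 medium and 1 LPS library, and below the values of a group follow this order of pools. WT 16, WT 17 and Tg 17 belonged to batch 1 and WT 18, Tg 18 and Tg 19 to batch 2.

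Libraries held 48.2 to 60.9 M deposited counts, and values are given as CPM, the counts of a gene per M counts of its library, after scaling of the libraries. AM markers were present in every library, at a summed 11690 to 19480 CPM for 12 of 12 listed genes, most of it Chil3. Several of them moved with LPS, in both directions. Siglecf had a mean of 115 CPM in WT medium and 11.1 CPM in WT LPS, and 118 and 6.47 CPM in Scnn1b-Tg. Mertk also fell, from 169.5 to 38.25 CPM (WT) and from 214 to 38.45 CPM (Tg), and Pparg from 121.9 to 28.9 and from 151.9 to 26.6 CPM. Mrc1 fell from 257 to 94.5 and from 309 to 94.3 CPM, and Krt79 from 56.6 to 8.57 and from 29.5 to 3.415 CPM. The mean of Marco went, with LPS, from 631 to 1255 CPM (WT) and from 512 to 1574 CPM (Tg), that of Adgre1 from 176 to 689 and from 144 to 686 CPM, and Car4 from 16.9 to 47.3 and from 30.6 to 75.1 CPM. The sources differ on whether the cells were adherent lavage cells or were sorted from digested lungs by flow cytometry. Scnn1b itself lay between 0 and 0.755 CPM in the 12 libraries, which does not check the genotype because the transgene acts in epithelium.

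Prostaglandins and leukotrienes are lipid mediators made from arachidonic acid after phospholipases free it from membranes. Cyclooxygenases turn it into an unstable endoperoxide from which terminal synthases make the single prostaglandins, and these act on receptors of the cell surface. On the other branch, 5-lipoxygenase and its helper protein make leukotriene A4, from which one enzyme makes leukotriene B4, an attractant of neutrophils, and another makes leukotriene C4, the parent of the cysteinyl leukotrienes. Macrophages of the lung are a known source of both classes.

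In the mouse genome (build mm10), the enzymes of the prostaglandin branch lie with Ptgs1 at chr2:36230426-36252272 (plus), Ptgs2 at chr1:150100031-150108227 (plus) and Ptges at chr2:30889471-30929863 (minus). The receptors lie with Ptgir at chr7:16906490-16910905 (plus), Ptger2 at chr14:44988195-45003820 (plus) and Ptger4 at chr15:5206661-5244187 (minus). The genes of the leukotriene branch lie with Alox5 at chr6:116410077-116461178 (minus), Alox5ap at chr5:149264767-149288153 (plus), Lta4h at chr10:93453411-93484875 (plus) and Ltc4s at chr11:50236461-50238616 (minus). The exons of Ptgs2, Ptges, Ptgir, Alox5 and Lta4h overlap no other annotated gene. Those of Ptgs1 share 148 bases with another annotated gene, those of Ptger2 390, those of Ptger4 1097, those of Alox5ap 189, and those of Ltc4s 268 of 1014. Because counting ignored strand, reads in these stretches cannot be assigned to one gene or the other.

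The upstream sequences of the strongest risers and of the most reduced leukotriene enzymes are shown because these 4 genes had the largest rises and the largest falls of the 10 in WT AMs. RefSeq (GRCm38.p6) gave a promoter for 9 of the 10 genes, and the 250 bases before the start of transcription follow, 5′ to 3′ on the strand of the gene. They are chr1:150099781-150100030 (plus strand) for Ptgs2, chr2:30903298-30903547 (minus) for Ptges, chr6:116461179-116461428 (minus) for Alox5 and chr11:50238533-50238782 (minus) for Ltc4s. Capitals mark every match to the motifs searched.
Ptgs2: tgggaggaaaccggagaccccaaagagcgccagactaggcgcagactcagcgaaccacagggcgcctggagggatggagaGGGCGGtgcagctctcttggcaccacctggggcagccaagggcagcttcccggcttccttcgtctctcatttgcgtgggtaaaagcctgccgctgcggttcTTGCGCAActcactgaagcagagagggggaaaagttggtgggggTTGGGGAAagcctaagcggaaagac
Ptges: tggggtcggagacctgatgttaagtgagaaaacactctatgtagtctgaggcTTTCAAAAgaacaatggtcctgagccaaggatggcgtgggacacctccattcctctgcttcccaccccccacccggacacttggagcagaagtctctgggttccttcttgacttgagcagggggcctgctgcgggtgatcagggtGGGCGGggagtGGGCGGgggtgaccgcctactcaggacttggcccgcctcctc
Alox5: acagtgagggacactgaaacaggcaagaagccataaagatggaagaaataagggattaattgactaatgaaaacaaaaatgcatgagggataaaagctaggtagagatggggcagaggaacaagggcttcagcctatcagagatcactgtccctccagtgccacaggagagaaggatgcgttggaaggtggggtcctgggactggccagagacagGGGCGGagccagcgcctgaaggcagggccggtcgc
Ltc4s: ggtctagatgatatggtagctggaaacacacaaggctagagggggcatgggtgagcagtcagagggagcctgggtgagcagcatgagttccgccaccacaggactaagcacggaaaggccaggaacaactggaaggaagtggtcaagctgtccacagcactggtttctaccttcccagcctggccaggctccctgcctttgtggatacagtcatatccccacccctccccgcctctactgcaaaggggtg

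Motifs were searched on both strands from 250 bases before to 50 after the start. One was TGANTCA, to which AP-1 binds. Another was TGACGT, the core of the cAMP response element. The letters for C/EBP were TTNNGNAA. The GC box was taken as GGGCGG, in Ptger4 with neighbours that share a base. The TATA box was TATAAA, and NF-kB was searched by its usual consensus. Among all 32851 promoters of that length, C/EBP letters stood in 40.7%, the GC box in 35.7%, the TATA box in 13.6%, NF-kB in 8.5%, AP-1 in 7.8% and the cAMP element in 7.5%. Of the genes that rose, Ptgs2 held 2 C/EBP matches and 1 GC box upstream and, at bases 13 to 18 counted from its start, the cAMP element on the opposite strand. Ptges held 1 C/EBP match and 2 GC boxes, and Ptger2 held 3 C/EBP matches. Of the genes that fell, Alox5 held 1 GC box, Ptger4 held 4 and Ptgir 2, and Ptgs1, Lta4h and Ltc4s held none of the 6 motifs. A match describes letters only, and the absence of one says nothing of sites outside these windows.

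LPS raised Ptgs2, Ptges and Ptger2 and lowered Ptger4 and all 4 genes of the leukotriene branch in AMs of both genotypes. In WT AMs 8 of the 10 genes passed the test (edgeR, adjusted p under 0.05 over all genes), 3 higher and 5 lower, and in Scnn1b-Tg AMs all 10 passed, 3 higher and 7 lower. Among all genes tested, 15.2% were higher and 15.8% lower with LPS in WT, and 18.8% and 17.8% in Scnn1b-Tg. The median log2 fold change of the 10 genes was -0.79 in WT and -0.97 in Scnn1b-Tg, beside 0.00 and -0.02 for all genes. Medium and LPS libraries did not overlap for 9 of the 10 genes in WT and for 10 in Scnn1b-Tg, as for 38.7% and 43.8% of all genes. In bulk RNA, fewer cells of a kind and less RNA per cell cannot be told apart.

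**Figure D1:**
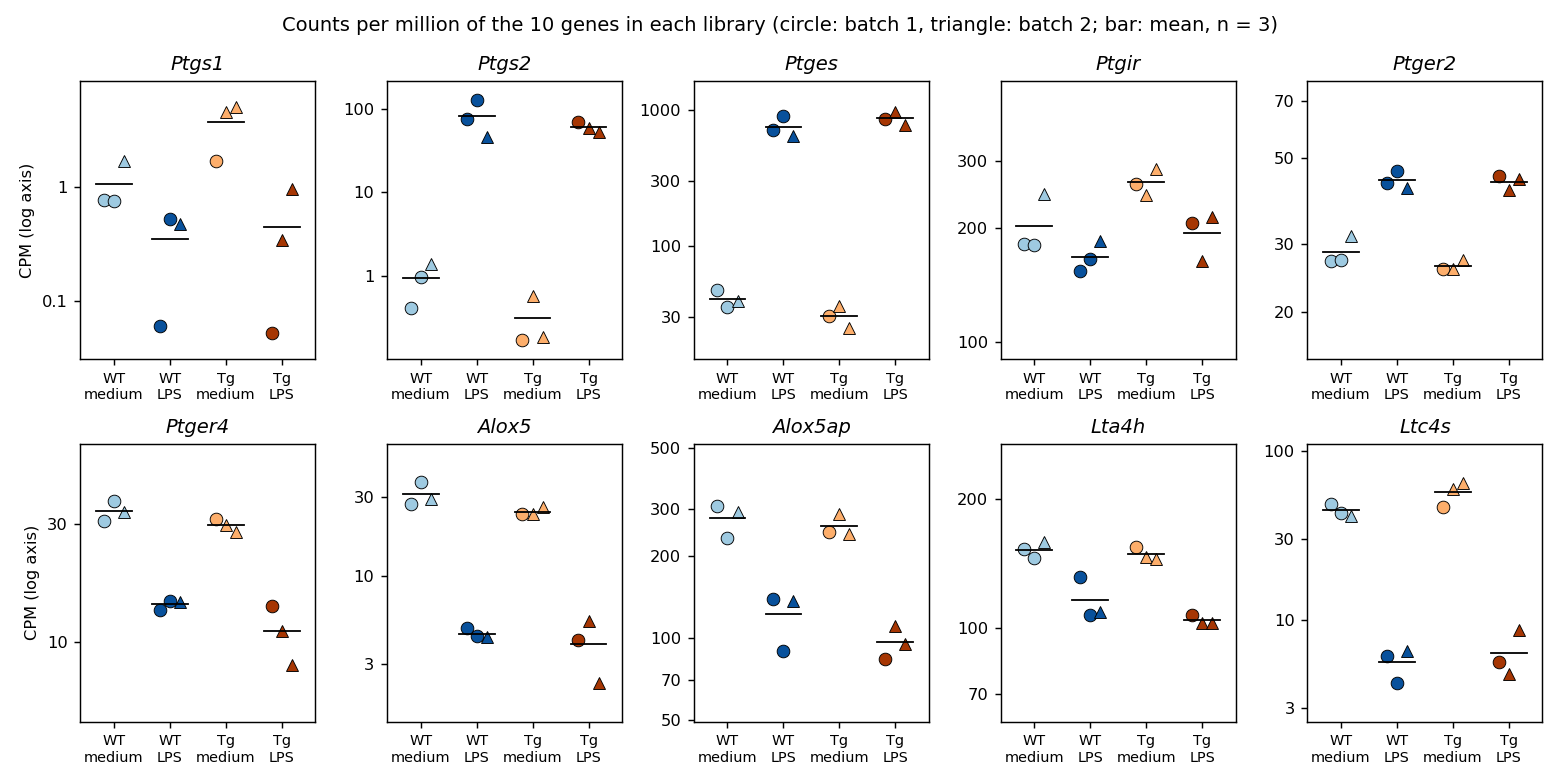
CPM of each gene (log axis, a panel a gene) in the 12 libraries by group, with circles for batch 1, triangles for batch 2 and a bar for the mean of 3. Ptgs2 and Ptges stand far higher in all 6 LPS libraries than in the medium libraries, and Alox5 and Ltc4s far lower.

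Ptgs2 encodes cyclooxygenase-2, the inducible form of the enzyme. It stood at 0.412, 0.978 and 1.41 CPM in WT medium and at 75.8, 128 and 46.3 CPM in WT LPS. In Scnn1b-Tg it stood at 0.171, 0.571 and 0.187 CPM in medium and at 70.8, 58.6 and 52.9 CPM in LPS. The lowest of the 6 LPS libraries thus lay 32.9 times above the highest of the 6 medium libraries, although the medium values rest on only 10 to 70 deposited counts. The fitted rise was 6.45 on the log2 scale in WT (SE 0.54, adjusted p = 1.02e-05 by edgeR) and 7.61 in Scnn1b-Tg (SE 0.59, adjusted p = 4.55e-06). The size leans on single medium libraries, since the WT rise became 132.5-fold in place of 87.4-fold without WT medium 18, and the Scnn1b-Tg rise 347.9-fold in place of 196-fold without Tg medium 18.

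Ptges encodes the inducible microsomal synthase that makes prostaglandin E2 from the product of cyclooxygenase. Its values were 47.4, 36.0 and 39.8 CPM in WT medium and 718, 914 and 645 CPM in WT LPS. In Scnn1b-Tg they were 30.5, 36.2 and 25.1 CPM in medium and 869, 965 and 780 CPM in LPS. No LPS library came near a medium library. The rise was 4.20 on the log2 scale in WT (SE 0.19, adjusted p = 7.47e-08), which is 18.4-fold, and 4.83 in Scnn1b-Tg (SE 0.19, adjusted p = 2.5e-08), which is 28.5-fold.

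Ptgs1, the constitutive cyclooxygenase-1, was scarce throughout and went the other way. It had 0.770, 0.754 and 1.67 CPM in WT medium, and 0.0599, 0.520 and 0.472 CPM in WT LPS. In Scnn1b-Tg it had 1.68, 4.45 and 4.93 CPM in medium and 0.0528, 0.342 and 0.949 CPM in LPS. The lowest were WT LPS 16 and Tg LPS 17, with 3 deposited counts each, below the 8 counts taken as the limit of detection. The fall passed the test in Scnn1b-Tg, at -3.18 on the log2 scale (SE 0.64, adjusted p = 0.00261), and not in WT, at -1.51 (SE 0.65, adjusted p = 0.105). Without Tg LPS 19 the Scnn1b-Tg estimate was -4.10 (adjusted p = 0.00148), and without WT LPS 17 the WT estimate was -2.60 and passed (adjusted p = 0.0105). With the pool as a random block, the WT fall also passed, at -1.85 (adjusted p = 0.0121).

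Among the receptors, Ptger2 rose and Ptger4 fell, although both encode receptors of prostaglandin E2 (EP2 and EP4) that signal through cAMP. Ptger2 had 27.1, 27.2 and 31.4 CPM in WT medium and 43.1, 46.3 and 41.7 CPM in WT LPS. In Scnn1b-Tg it had 25.8, 25.9 and 27.4 CPM in medium and 45.0, 41.3 and 44.1 CPM in LPS. The groups were narrow and apart, and the rise was 1.53-fold in WT (log2 0.62, SE 0.09, adjusted p = 0.000266) and 1.65-fold in Scnn1b-Tg (log2 0.72, SE 0.09, adjusted p = 6.34e-05).

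Ptger4 had 30.8, 37.2 and 33.5 CPM in WT medium and 13.5, 14.7 and 14.5 CPM in WT LPS. In Scnn1b-Tg the values were 31.4, 29.8 and 27.7 CPM in medium and 14.0, 11.1 and 8.08 CPM in LPS. Again no LPS library reached a medium library. The log2 fold change was -1.25 in WT (SE 0.15, adjusted p = 0.000108) and -1.43 in Scnn1b-Tg (SE 0.15, adjusted p = 3.09e-05). Part of its exons is shared with Ttc33 on the other strand.

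Ptgir, the receptor of prostacyclin, had the smallest estimates of the receptors. It had 181, 180.5 and 245 CPM in WT medium and 154, 166 and 185 CPM in WT LPS, and these groups overlapped. In Scnn1b-Tg it had 261, 244 and 286 CPM in medium and 206, 164 and 213 CPM in LPS, without overlap. The log2 fold change was -0.26 in WT (SE 0.13, adjusted p = 0.164) and -0.44 in Scnn1b-Tg (SE 0.13, adjusted p = 0.023). Both calls depended on single choices: the WT fall passed with the pool as a fixed block (adjusted p = 0.0229). The Scnn1b-Tg fall was lost without Tg medium 17 (adjusted p = 0.102), without Tg medium 19 (adjusted p = 0.0786) or without Tg LPS 18 (adjusted p = 0.0779).

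All 4 genes of the leukotriene branch fell with LPS in both genotypes, the first and the last enzyme of the route to leukotriene C4 the most. Alox5, which encodes 5-lipoxygenase, had 27.3, 36.6 and 29.2 CPM in WT medium and 4.91, 4.41 and 4.33 CPM in WT LPS. In Scnn1b-Tg it had 23.6, 23.7 and 25.9 CPM in medium and 4.17, 5.42 and 2.30 CPM in LPS. Its LPS values lay under 6 CPM in all 6 pools. The log2 fold change was -2.77 in WT (SE 0.25, adjusted p = 1.11e-05) and -2.62 in Scnn1b-Tg (SE 0.25, adjusted p = 1.24e-05), a 6.82-fold and a 6.16-fold reduction.

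Ltc4s, which encodes leukotriene C4 synthase, had 49.0, 43.3 and 41.6 CPM in WT medium and 6.07, 4.22 and 6.53 CPM in WT LPS. In Scnn1b-Tg it had 46.9, 59.5 and 65.3 CPM in medium and 5.58, 4.76 and 8.65 CPM in LPS. The log2 fold change was -3.01 in WT (SE 0.22, adjusted p = 2.74e-06) and -3.17 in Scnn1b-Tg (SE 0.23, adjusted p = 1.37e-06). No other of the 10 genes had a WT estimate this low. An antisense transcript shares 268 bases of its exons, and reads of the pair cannot be separated without strand.

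Alox5ap, whose product presents arachidonate to 5-lipoxygenase, had 306, 233 and 292 CPM in WT medium and 140, 90.0 and 138 CPM in WT LPS. In Scnn1b-Tg the values were 246, 287 and 242 CPM in medium and 83.8, 111 and 95.5 CPM in LPS. They did not overlap, with log2 fold changes of -1.18 in WT (SE 0.16, adjusted p = 0.000215) and -1.42 in Scnn1b-Tg (SE 0.16, adjusted p = 4.36e-05).

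Lta4h, the hydrolase that makes leukotriene B4, fell the least of the branch. It had 153, 146 and 159 CPM in WT medium and 132, 107 and 109 CPM in WT LPS. In Scnn1b-Tg it had 155, 147 and 145 CPM in medium and 107, 103 and 102.5 CPM in LPS. The groups were apart, with log2 fold changes of -0.40 in WT (SE 0.09, adjusted p = 0.00468) and -0.51 in Scnn1b-Tg (SE 0.09, adjusted p = 0.000734). The WT call was lost when only the WT libraries were fitted (adjusted p = 0.0794) and without WT medium 18 (adjusted p = 0.0558).

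**Figure D2:**
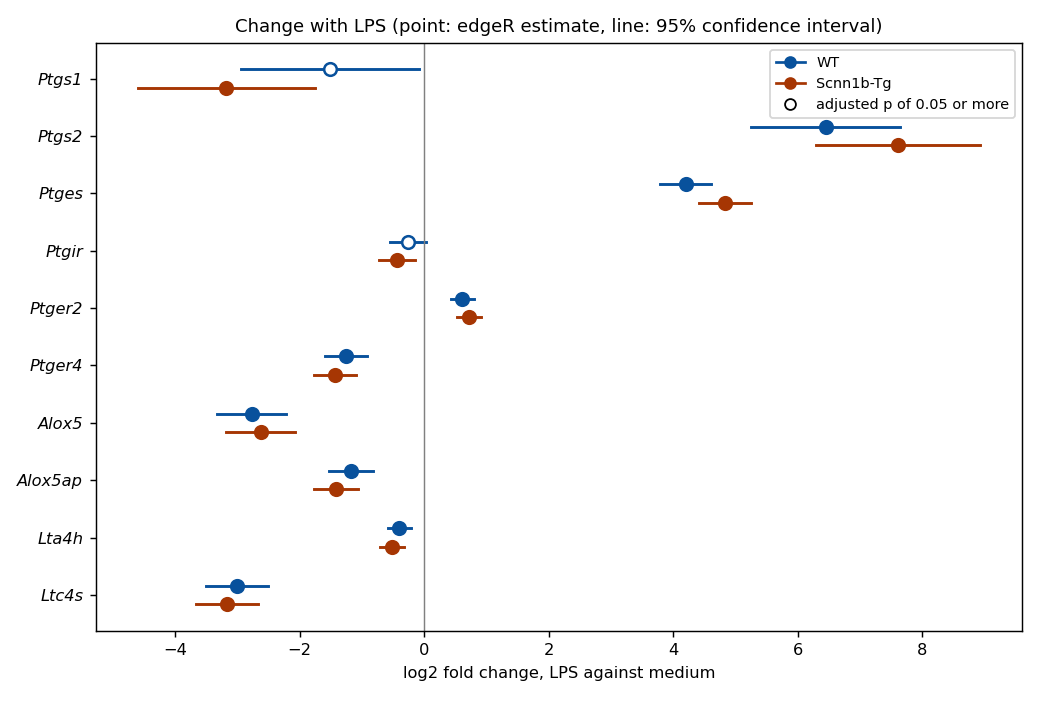
Fitted log2 fold change with LPS (points) and 95% confidence interval (lines) for each gene, in WT (blue) and Scnn1b-Tg AMs (brown), with open points where the adjusted p is 0.05 or more. Only Ptgs1 and Ptgir in WT are open, and the largest rise is that of Ptgs2, at 6.45 in WT and 7.61 in Scnn1b-Tg.

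Because medium and LPS cells came from the same pools, the change was also read within each pool, as the difference of log2(CPM + 0.5). For each of the 10 genes, all 6 pools moved in the same direction. Ptgs2 rose by 6.39, 6.44 and 4.62 in the WT pools and by 6.73, 5.79 and 6.28 in the Tg pools. Ptges rose by 3.91, 4.65 and 4.00 in the WT pools and by 4.81, 4.72 and 4.93 in the Tg pools, so that every Tg pool lay above every WT pool. Ptgs1 changed by -1.18, -0.30 and -1.16 in the WT pools and by -1.98, -2.56 and -1.91 in the Tg pools, also without overlap, on a scale that shrinks changes of genes this low. These were the only members of the 10 whose WT and Tg pools did not overlap, which held for 16.5% of all genes. In the other 8, ranges of the genotypes met, as in Alox5, at -2.92 to -2.36 in WT and -3.24 to -2.03 in Scnn1b-Tg.

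**Figure D3:**
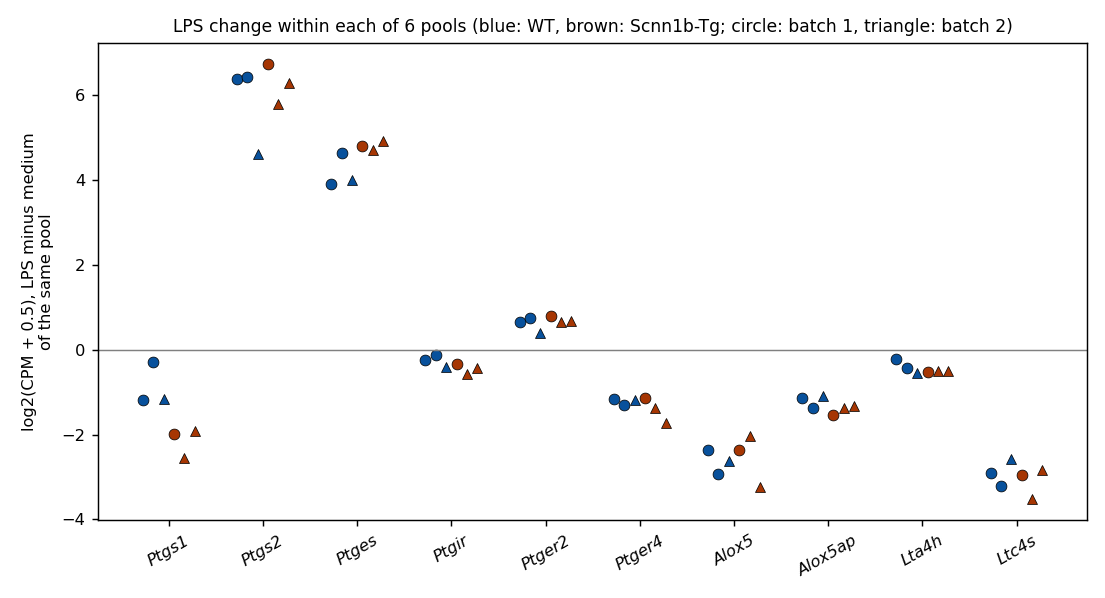
LPS change of each gene within the 6 pools, as log2(CPM + 0.5) in LPS minus medium, with blue for WT, brown for Scnn1b-Tg, circles for batch 1 and triangles for batch 2. All pools of a gene fall on the same side of 0, and the Tg points of Ptges and Ptgs1 lie farther from 0 than the WT points.

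The LPS responses of the genotypes were then compared by their difference in the fit, and none of the 10 genes passed, by edgeR or by DESeq2. At an unadjusted p under 0.05 there was 1, Ptges, and over all 13729 genes 0% passed, with 798 (5.81%) at an unadjusted p under 0.05. The response of Ptges was larger in Scnn1b-Tg by 0.63 on the log2 scale (95% confidence interval 0.12 to 1.14, adjusted p = 0.759), and by 0.53 in batch 1 and 0.82 in batch 2. That of Ptgs2 differed by 1.17 (-0.58 to 2.91) and that of Ptgs1 by -1.67 (-3.64 to 0.31), both with intervals that span 0. Over left-out libraries the Ptgs2 difference ran from 0.58 (without WT medium 18) to 2.01 (without Tg medium 18), and that of Ptgs1 from -2.59 (without Tg LPS 19) to -0.64 (without WT LPS 17). For the other 7 genes the differences lay between -0.24 and 0.15, with the widest interval, that of Alox5, from -0.60 to 0.89.

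Set side by side per kilobase of exon, the scale on which levels of different genes can be compared, the order of the 10 genes changed with LPS. In WT medium Alox5ap led at 195 ± 27.2 CPM per kb (SD, n = 3), then Ptgir at 60.7 ± 11.1, Ltc4s at 44.0 ± 3.82, Lta4h at 25.0 ± 1.07 and Ptges at 10.4 ± 1.48. Alox5 followed at 7.56 ± 1.20, Ptger2 at 5.50 ± 0.47 and Ptger4 at 5.09 ± 0.49, and Ptgs1 at 0.274 ± 0.135 and Ptgs2 at 0.204 ± 0.109 came last. Ptger2 and Ptger4 overlapped, as did Ptgs1 and Ptgs2, and the other neighbours did not. In Tg medium the order was the same, with no overlap between neighbours, from 182 ± 17.4 CPM per kb for Alox5ap to 0.0676 ± 0.0494 for Ptgs2.

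After LPS, Ptges was the highest of the 10 in both genotypes, at 193 ± 35.4 CPM per kb in WT and 222 ± 23.5 in Scnn1b-Tg. Alox5ap came next, at 86.2 ± 19.8 in WT and 68.1 ± 9.51 in Scnn1b-Tg, and then Ptgir at 50.4 ± 4.74 and 58.3 ± 8.05, which overlapped with Alox5ap in Scnn1b-Tg only. Ptgs2 moved up to the fifth place, at 18.2 ± 8.97 in WT and 13.3 ± 1.99 in Scnn1b-Tg, behind Lta4h at 18.99 ± 2.26 and 17.1 ± 0.45, with which it overlapped in WT only. Ptger2 followed at 8.42 ± 0.46 in WT and 8.36 ± 0.37 in Scnn1b-Tg. Ptger4 stood at 2.14 ± 0.09 and 1.66 ± 0.44, Ltc4s at 5.53 ± 1.21 and 6.24 ± 2.03, Alox5 at 1.11 ± 0.0775 and 0.965 ± 0.383, and Ptgs1 was last, at 0.0903 ± 0.0652 and 0.115 ± 0.118. In Scnn1b-Tg, Ltc4s overlapped with Ptger2 and Alox5 with Ptger4, and no other neighbours overlapped. Exon lengths here join all annotated transcripts of a gene, so a gene read mainly from a short form is placed too low.

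Between genotypes, no gene of the 10 differed by the test in medium or in LPS, with edgeR or with DESeq2. In medium 3 reached an unadjusted p under 0.05 (Ptgs2, Ptges and Ptgir), and in LPS 1 did (Alox5ap), beside 12.97% and 6.73% of all genes. Over all genes, 0.277% passed in medium and 0.051% in LPS. The largest estimates in medium were those of the cyclooxygenases, in opposite directions: Ptgs2 was lower in Scnn1b-Tg by -1.53 on the log2 scale (95% confidence interval -3.03 to -0.03, adjusted p = 0.377), and its groups overlapped. This estimate was -0.82 without WT medium 18 and -2.33 without Tg medium 18. Ptgs1 was higher by 1.26 (-0.11 to 2.63, adjusted p = 0.43). Its lowest Tg library, at 1.677 CPM, stood barely above the highest WT library, at 1.668 CPM, and batch 2 libraries were higher than batch 1 libraries in both genotypes. Within batches the Ptgs1 difference of log2(CPM + 0.5) was 0.79 in batch 1 and 1.26 in batch 2, and that of Ptgs2 was -0.79 and -1.15.

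Ptges was lower in Scnn1b-Tg medium by -0.39 (-0.77 to -0.01, adjusted p = 0.366) and Ptgir higher by 0.35 (0.05 to 0.64, adjusted p = 0.311), with overlapping libraries in both. The Ptgir difference was 0.53 in batch 1 and 0.11 in batch 2. For the other 6 genes the estimates in medium ran from -0.32 for Alox5 to 0.27 for Ltc4s, and their intervals all held 0. Groups stood apart in medium for Ptgs1 and Alox5, 2 of 10 genes, as for 18.4% of all genes. In LPS they stood apart for none of the 10 and for 9.11% of all genes, and the smallest p was that of Alox5ap, at -0.41 (-0.77 to -0.05, adjusted p = 0.676), -0.42 within either batch.

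**Figure D4:**
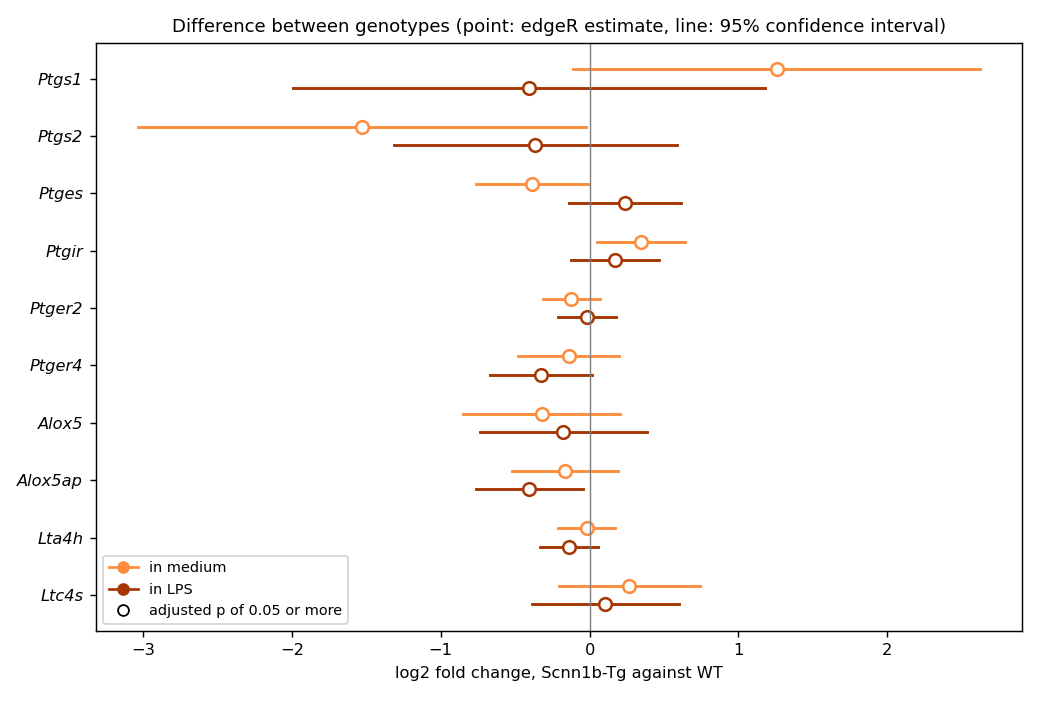
Fitted log2 fold change of Scnn1b-Tg against WT (points, all open because no adjusted p was under 0.05) with 95% confidence interval (lines), in medium (orange) and in LPS (brown). The intervals of Ptgs1 and Ptgs2 are the widest, and that of Ptger2 in LPS, at -0.21 to 0.18, among the narrowest.

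The balance of the cyclooxygenases was followed in single libraries as the ratio of Ptgs2 to Ptgs1 in CPM per kb, after adding 0.5 CPM. In medium the ratio was 0.609, 1.00 and 0.746 in WT and 0.261, 0.183 and 0.107 in Scnn1b-Tg. In LPS it was 116, 106 and 40.8 in WT and 109, 59.5 and 31.3 in Scnn1b-Tg. All Tg medium libraries thus lay below all WT medium libraries, while LPS libraries of the genotypes were mixed. Among single genes, the genotypes stood apart in medium for 18.4%, Ptgs1 included, and no such share was taken for ratios. The mean log2 ratio differed by -2.15 in medium (exact two-sided permutation test, p = 0.1, the smallest that 3 against 3 allows), and by -1.58 in batch 1 and -2.41 in batch 2. In LPS it differed by -0.43 (exact permutation test, p = 0.6), by -0.02 in batch 1 and 0.08 in batch 2, and by 0.02 without Tg LPS 19. Neither permutation test took account of batch, over which the genotypes were spread unevenly. In medium the ratio is set by low counts, and without the added 0.5 CPM its difference was -3.40.

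The rest of the eicosanoid pathway was read from a list of 60 further genes, of which 51 were in the table and 33 were tested. LPS raised 7 and lowered 12 of the 33 in WT, and raised 9 and lowered 14 in Scnn1b-Tg, with medians of -0.17 and -0.33 on the log2 scale, beside 0.00 and -0.02 for all genes. All 17 genes that passed in both genotypes changed in the same direction, as did all 3654 genes of the whole table that passed in both. Among genes of arachidonate release and reacylation, 3 rose and 3 fell of 9 tested in WT, and 3 rose and 2 fell in Scnn1b-Tg. Of the 4 other prostanoid synthases tested, 1 rose and 2 fell in WT and 2 rose and 2 fell in Scnn1b-Tg. Of 8 genes of leukotriene processing and breakdown, 1 rose and 3 fell in either genotype.

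Pla2g4a, the cytosolic phospholipase that frees arachidonate, rose from 49.6 ± 4.15 to 120 ± 9.32 CPM in WT (SD, n = 3; log2 fold change 1.27, adjusted p = 7.77e-07) and from 42.9 ± 5.17 to 116 ± 14.9 CPM in Scnn1b-Tg (1.44, adjusted p = 2.11e-07). Abcc1, an exporter of leukotriene C4, rose from 202 ± 6.29 to 606 ± 75.9 CPM in WT (1.59, adjusted p = 9.07e-06) and from 151 ± 17.1 to 582 ± 135 CPM in Scnn1b-Tg (1.93, adjusted p = 1.64e-06). Acsl4, which ties arachidonate to coenzyme A, rose by 0.83 in WT and 0.91 in Scnn1b-Tg, and Ptgr1, a reductase that inactivates prostaglandins and leukotriene B4, by 0.68 (adjusted p = 0.0325) and 0.81 (adjusted p = 0.0116). The WT call of Ptgr1 was lost with no batch term (adjusted p = 0.0702) and without any of WT medium 16, 17 or 18 or WT LPS 16 or 18, with adjusted p from 0.0508 to 0.123. Its Scnn1b-Tg call was lost without Tg medium 18 (adjusted p = 0.0522) or Tg LPS 19 (adjusted p = 0.0562). Pla2g7, which breaks down platelet-activating factor, rose by 0.54 in WT (adjusted p = 0.0354), a call lost without any of WT medium 17 or 18, WT LPS 16 or 18, or Tg medium 17 or 18. In Scnn1b-Tg, Pla2g7 rose by 0.76 (adjusted p = 0.00517), without overlap of medium and LPS libraries. Ephx2, a soluble epoxide hydrolase, rose by 0.88 in Scnn1b-Tg (adjusted p = 0.039), a call lost without any of WT medium 16 or 17, WT LPS 18, Tg medium 17 or 18, or Tg LPS 17 or 19, with adjusted p from 0.0501 to 0.217. In WT it had 0.71 (adjusted p = 0.101), which passed with the pool as a fixed block (adjusted p = 0.0139).

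Hpgds, the synthase that makes prostaglandin D2 in blood cells, fell from 17.3 ± 0.50 to 3.73 ± 0.21 CPM in WT (log2 fold change -2.21, adjusted p = 3.36e-06) and from 26.1 ± 6.11 to 5.00 ± 0.68 CPM in Scnn1b-Tg (-2.38, adjusted p = 1.32e-06). Aloxe3, a lipoxygenase that makes epoxyalcohols, fell from 3.04 ± 0.30 to 0.594 ± 0.209 CPM in WT (-2.34, adjusted p = 0.000478) and from 5.20 ± 1.54 to 0.466 ± 0.189 CPM in Scnn1b-Tg (-3.46, adjusted p = 2.84e-05). Mgst3, a microsomal glutathione transferase, had -1.61 in WT and -1.64 in Scnn1b-Tg, and Pla2g15, a lysosomal phospholipase, -1.49 and -1.86, all past the test. Ggt5, which turns leukotriene C4 into D4, fell in WT (-1.47, adjusted p = 0.00861) and had -0.87 in Scnn1b-Tg (adjusted p = 0.0673), where it passed without Tg LPS 19 (adjusted p = 0.00205) or with the pool as a fixed block (adjusted p = 0.0393). Ephx1, the microsomal epoxide hydrolase, had -1.33 in WT (adjusted p = 0.0205) and -1.51 in Scnn1b-Tg (adjusted p = 0.00966). The WT call of Ephx1 was lost without WT medium 16 (adjusted p = 0.0844), WT medium 18 (adjusted p = 0.0793) or WT LPS 17 (adjusted p = 0.0745).

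None of the 33 genes passed between genotypes in medium or LPS, or in the difference of the LPS responses, by edgeR, with 9, 4 and 5 at an unadjusted p under 0.05, where 12.97%, 6.73% and 5.81% of all genes were. DESeq2 passed 2 in medium, 0 in LPS and 0 in the difference of responses. The genes it passed in medium, named after their values were seen, were Pla2g6, a calcium-independent phospholipase, higher in Scnn1b-Tg by 0.47 on the log2 scale (adjusted p = 0.0104 by DESeq2), and Hpgds, higher by 0.59 (adjusted p = 0.0356 by DESeq2).

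**Figure D5:**
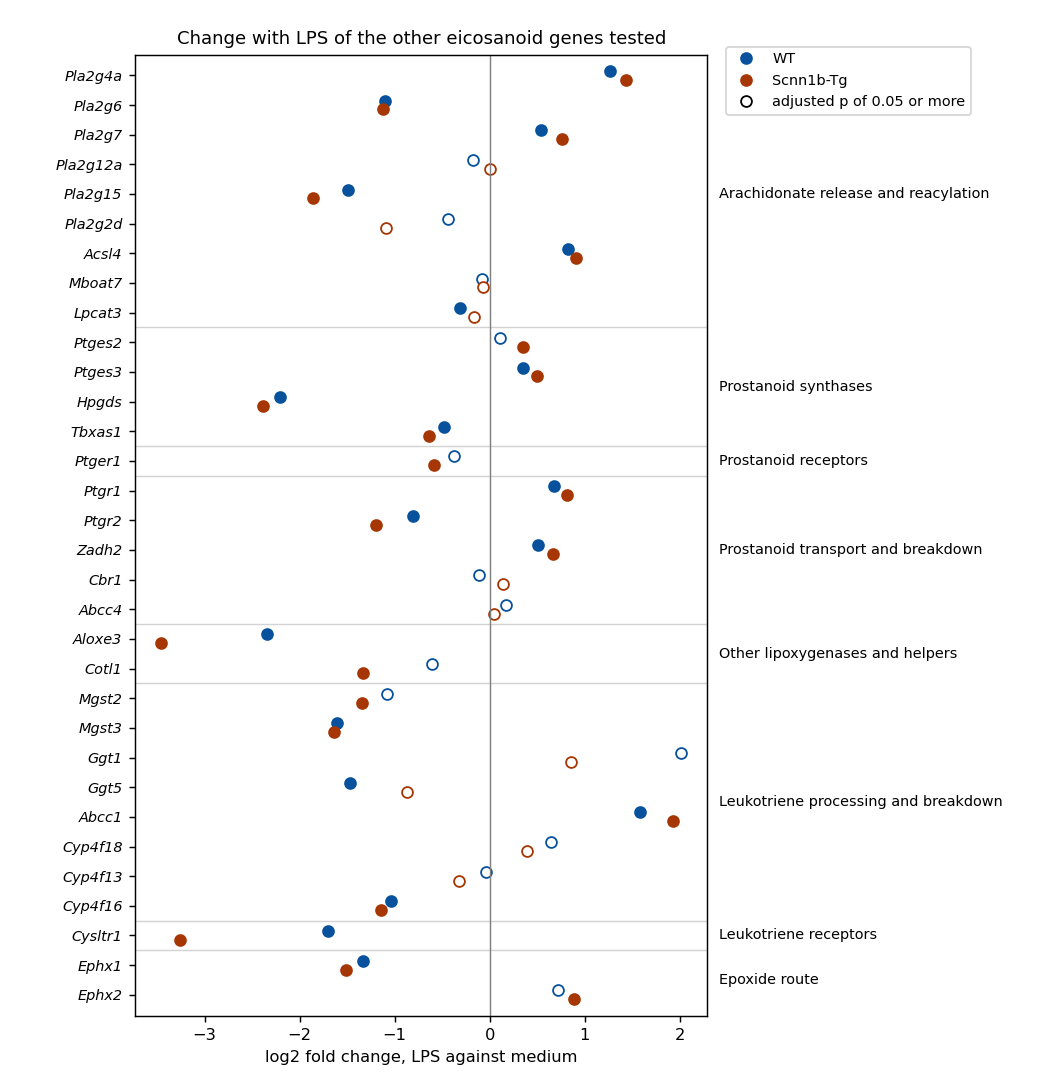
Log2 fold change with LPS of 32 further eicosanoid genes, grouped by role, in WT (blue) and Scnn1b-Tg (brown), with open points where the adjusted p is 0.05 or more. Filled points of a gene lie on the same side of 0 in both genotypes, from Aloxe3 (-2.34 and -3.46) to Abcc1 (1.59 and 1.93). Hpgd, with 0 counts in every Tg LPS library, is not drawn.

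Markers of other cells that make these mediators were looked up in the same libraries. Of 8 listed mast cell and basophil markers, the 2 in the table, Cpa3 and Tpsb2, reached at most 0.0342 and 0.0520 CPM. Of 6 eosinophil markers, 3 were in the table. Ccr3 and Prg2 did not fall with LPS: they had 0 CPM in medium in both genotypes and at most 0.226 and 0.0944 CPM in LPS. Ear6 alone made up nearly all of a summed level that moved down as Ltc4s and Alox5 did. It ran from 14.8 to 20.5 CPM in WT medium and from 2.34 to 3.85 CPM with LPS, and from 8.93 to 20.5 and from 1.48 to 8.54 CPM in Scnn1b-Tg. Their part in those results was not tested. In medium the neutrophil markers (7 of 10 listed) summed to 17.1 to 20.9 CPM in WT and 25.6 to 37.7 CPM in Scnn1b-Tg, where the estimates of Ptgs1 and Ptgir were also higher, and with LPS to 12.3 to 15.6 and 16.9 to 22.2 CPM. Their part there was not tested. Of the 7, S100a8, Mmp8, Cxcr2 and Csf3r reached 14.2, 15.5, 9.64 and 8.87 CPM, each with a higher mean in Tg medium than in WT medium. S100a9, Ngp and Camp reached at most 0.0951, 0.0537 and 0.476 CPM. The AM marker sum, mostly Chil3, was also higher in Tg medium, at 16110 to 19480 CPM beside 14410 to 15010 CPM in WT medium.

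Platelets are rich in cyclooxygenase-1, and their markers (4 of 5 listed), most of it Pf4, summed to 0.713 to 1.29 CPM in WT cells without LPS and 2.20 to 5.07 CPM with it, and to 0.654 to 1.34 and 3.08 to 5.84 CPM in Scnn1b-Tg. The sum was higher where Ptgs1 was lower, mainly through Pf4, with means of 0.749 and 3.58 CPM in WT medium and LPS and 0.669 and 4.41 CPM in Scnn1b-Tg. Gp1bb had means of 0.128 and 0.121 CPM in WT and 0.185 and 0.1845 CPM in Scnn1b-Tg. Itga2b and Ppbp reached at most 0.0998 and 0.190 CPM in any library. The part of platelets was not tested. For the 7 epithelial markers the WT sums were 78.6 to 104 CPM (medium) and 76.4 to 112 CPM (LPS). The Tg sums were lower, at 39.1 to 68.8 (medium) and 32.6 to 62.6 CPM (LPS), mainly through Scgb1a1. Mean Scgb1a1 was 54.3 (WT) against 19.5 CPM (Tg) without LPS, and 62.7 against 25.2 CPM with it. Cdh1 and Scgb3a2 went the other way in medium, at 6.18 (WT) against 6.50 CPM (Tg) and 0.348 against 0.408 CPM, but not with LPS. The part of these epithelial differences in the values of the 10 genes was not tested. Monocyte markers (6 genes) summed to at most 2.49 CPM, dendritic cell markers (5) to at most 3.63, T and NK cell markers (6) to at most 1.47 and B cell markers (4) to at most 1.12.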

How the data were processed

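RNA was sequenced from pooled AMs of 12 libraries, with batch and treatment taken from the labels. Per the study's methods, reads (125 bp pairs, SMART-Seq v4) were aligned to mm10 with HISAT2, ignoring strand, and quantified with StringTie against GENCODE M20. The authors deposited these as estimated counts per gene, made from StringTie coverage and already whole numbers, and no other per-sample columns were present. A read appeared to be worth 2.5 counts, so 8 counts (the worth of 3 reads, 0.137 to 0.163 CPM) were taken as the limit of detection, a limit that covers counting error only. Depth was 48.2 to 60.9 M deposited counts per library. Symbols and positions came from GENCODE M21 (mm10), which held 20158 of 20551 IDs, and the other 393 held 0.25% of counts.

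Genes were kept by filterByExpr (minimum count 10, total 15) and scaled by TMM. The quasi-likelihood test of edgeR 4.0.16 (R 4.3.3) used a term per group and one for batch over all 12 libraries, two-sided, with Benjamini-Hochberg adjustment over 13729 genes at 0.05. Replicates are pools. The main fit had no term for the pool and took the medium and LPS libraries of a pool as independent. Its p-values measure the spread among the libraries of a group after batch. SEs and intervals were derived from the estimates and the test statistic. DESeq2 1.42.0, limma 3.58.1, other filters and scalings, blocks and single left-out libraries were alternatives. Medium and LPS libraries of a pool share animals, and their deviations from group means correlated at 0.14 to 0.34, in all 6 pools best with their own. Batch was not removed from these deviations. WT and Tg libraries of pools with the same number, which share no animals, correlated at 0.11 to 0.26. The test was checked on simulated data, which held no batch or pool effect and so could not check how either was handled.

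The 10 genes, the list of 60 further genes and the cell markers were chosen with earlier results of these data known. Of the list, text names the 5 largest rises and falls per genotype with a mean of at least 1 CPM that passed the test. Some listed genes were not analysed here. The design's rule for the Ptgs2 to Ptgs1 ratio was an exact permutation test (scipy) of CPM per kb with 0.5 CPM added.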

Additional observations from a re-analysis of the deposited data

How the results depend on the processing

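Over 22 alternatives, 431 of 440 values of the 10 genes in the LPS comparisons kept their direction and their side of the threshold, and none reversed. The exceptions were the calls of Ptgs1, Ptgir and Lta4h in WT and of Ptgir in Scnn1b-Tg. Among them was Ptgs1 in WT with counts divided by 5, which passed at -1.48 (adjusted p = 0.0328). The number of the 10 genes that passed was 7 to 9 in WT and 9 to 10 in Scnn1b-Tg over left-out libraries, and 0 in every genotype comparison. For the further list it was 14 to 21 and 20 to 24.

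With the pool as a replicate block, fixed or random, 9 of the 10 genes passed in WT and 10 in Scnn1b-Tg. The gene gained in WT was Ptgir with the fixed block and Ptgs1 with the random block, and no other call on the 10 genes changed. The fixed block gave no estimate between genotypes in medium or in LPS. The further genes that passed in medium between genotypes numbered 2 with DESeq2 and 1 (Hpgds) with the replicate number as a block in place of batch.

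Estimates between genotypes that did not pass the test and changed sign were as follows. In medium, Alox5ap was at 0.02 and Lta4h at 0.03 with the replicate number as a block, and Lta4h ranged from -0.06 to 0.04 over left-out libraries. In LPS, Ptgs1 was at 0.33 with no batch term and from -1.27 to 0.48 over left-out libraries, Ptger2 at 0.0001 with only the libraries compared and from -0.08 to 0.03, Alox5 from -0.48 to 0.07 and Ltc4s from -0.13 to 0.28. In the difference of responses, Alox5 ranged from -0.20 to 0.42 and Ltc4s from -0.44 to 0.05. The log2 ratio of Ptgs2 to Ptgs1 between genotypes ranged from -2.45 to -1.81 in medium and from -0.92 to 0.02 in LPS over left-out libraries. The cause of these changes was not tested. Ptgs1 rested on 3 to 264 deposited counts a library and Ptgs2 in medium on 10 to 70.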
